A study of Mus musculus with 16 samples.

Results

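Classic model odorant receptors are the mouse receptor genes that laboratories have tagged, swapped or deorphanised for decades, and they are described here across sorted olfactory cells. The 6 genes were chosen by that history, though with earlier results of these data known. They are Olfr2 (known as I7), Olfr17 (P2), Olfr73 (mOR-EG), Olfr151 (M71), Olfr160 (M72) and Olfr1507 (MOR28). Of these, 5 had a named probe set among the 1091 odorant receptors and 19505 genes measured, each through a single probe set. Olfr151 was not analysed here, because the annotation used names no probe set for it.

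The study exposed mice to bourgeonal, a floral aromatic aldehyde, and compared receptor RNA between sorted cell fractions. All mice were C57BL/6 carrying an S100a5-tauGFP reporter, both sexes, 7 to 12 weeks old. They were kept singly in clean air chambers for 40 hours, and from hour 26 received 10 second pulses every 20 minutes. The odor pools received bourgeonal and the vehicle pools filtered air, with 3 mice in a pool and 4 pools per treatment. Dissociated olfactory mucosa of each pool was sorted by GFP, and each fraction (titled GFP+ or GFP-) made a library, 16 in all, in 4 groups of 4. The labels do not list which mice made up a pool, so that both gates of a pool come from the same mice is inferred from the count of mice. Cells of several mice were pooled, so p-values measure the spread between pools.

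In the mouse nose a mature sensory neuron transcribes a single odorant receptor gene, from a single allele, and neurons with the same receptor send their axons to the same glomeruli. A receptor's level in a sorted library therefore depends on how many of its neurons fell into that gate and on how much receptor RNA each holds. These cannot be told apart in bulk libraries. S100a5 is a calcium-binding protein whose transcription in sensory neurons follows their activity, and its reporter is meant to mark neurons that have been active.

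For every sample the gate in the title is the opposite of the gate in its cell type label, and the titles are used here as names only. In all 8 pools S100a5 was higher on the titled GFP- side, by a mean of 1.02 ± 0.25 on the log2 scale (SD, n = 8 pools). The exact sign-flip test, two-sided and with the pools taken as independent, gave p = 0.00781, which is its lowest possible value. Kirrel2, an adhesion molecule of active neurons, lay on the same side (log2 1.05 ± 0.09 SE, limma adjusted p = 7.5e-06). The gate ratio below is the log2 value in the library titled GFP- minus that in the library titled GFP+ of the same pool, so a positive ratio points to the side with more S100a5.

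All values are log2 expression values as deposited by the authors. The arrays have no read depth, and their number limits the precision. As a guide to background, the 95th percentile of the 319 vomeronasal receptor genes lay between 4.29 and 4.97 in the 16 libraries. Values of different probe sets are not set against each other, since probes differ in brightness. Olfr2 and Olfr17 lie on chromosome 7, Olfr73 on chromosome 2, Olfr160 and Olfr151 on chromosome 9 and Olfr1507 on chromosome 14.

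The first coding bases of 3 of the receptors, shown to identify the genes, were taken from RefSeq (GRCm38.p6) and are printed 5′ to 3′ with the start codon in capitals.
Olfr17 (P2), chr7:107097467-107097516, + strand: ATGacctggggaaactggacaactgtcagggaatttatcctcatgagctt
Olfr73 (mOR-EG), chr2:88035088-88035137, - strand: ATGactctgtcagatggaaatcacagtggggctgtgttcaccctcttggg
Olfr160 (M72), chr9:37712231-37712277, - strand: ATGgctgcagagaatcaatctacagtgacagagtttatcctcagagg
These 3 RefSeq models are 948, 942 and 933 bases long, each a multiple of the codon length, and begin 0, 0 and 3 bases before the start codon. The 300-base windows around such starts lie next to the coding sequence, so they may not hold the promoter. Searched on both strands, 0 of the 3 windows held the EBF motif, the homeodomain core TAATTA or the core TAATGA. The shares of the 929 receptor windows that held them were 0.538%, 18.4% and 29.3%, and the shares of all 32851 windows were 0.904%, 5.29% and 9.78%.

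The 5 measured receptors took very unequal sides of the sort. Over all 8 pools MOR28 lay almost wholly in the libraries titled GFP+, M72 was higher in those titled GFP-, and P2 and mOR-EG were modestly lower in those titled GFP-. I7 did not pass. Of the 5, 1 was called higher and 3 lower (limma, adjusted p under 0.05 over all genes), against 43.8% of all 1091 receptors called higher and 31.3% called lower, 75.2% in all. Among all 19505 genes 14.4% were called higher and 13.2% lower, 27.6% in all. Of those calls 52.2% were higher, a share that was 88.9% with each library centred on its median, 62.9% after quantile normalization and 27.0% with libraries centred on their receptor median. The members' share of calls is thus near that of odorant receptors at large, and their median ratio of -0.61 lay beside a median of 0.10 for all genes and 0.27 for all receptors.

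**Figure D1:**
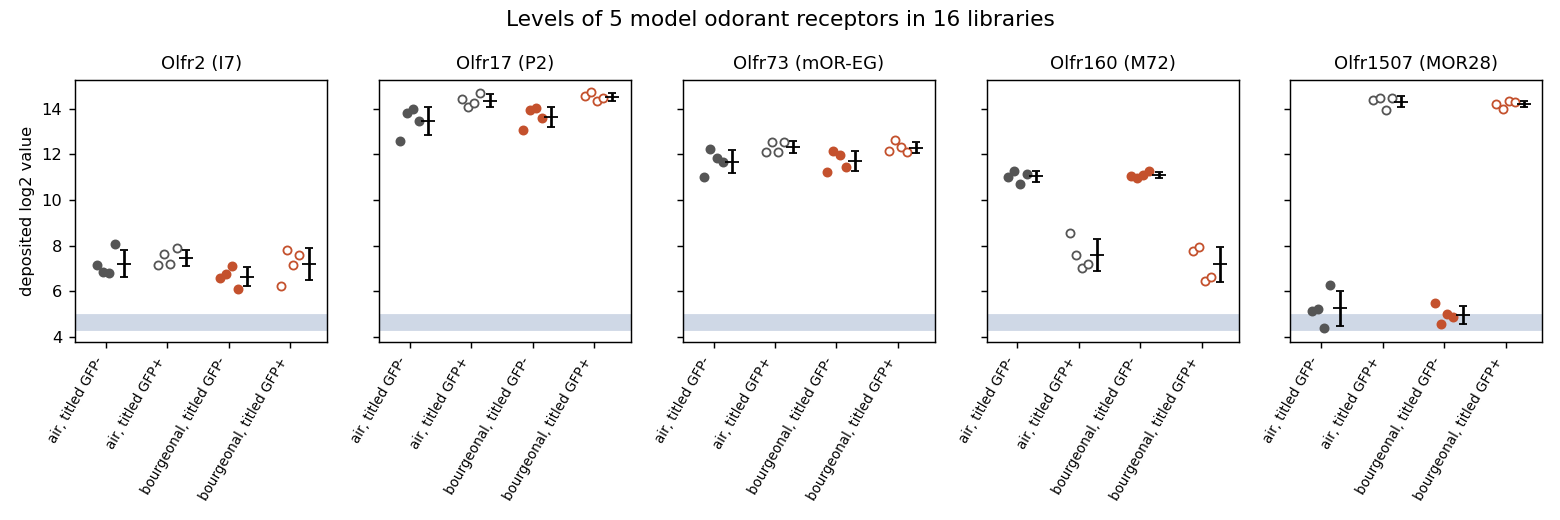
Deposited log2 values (y axis) of the 5 measured model receptors in the 4 groups (x axis), with a point per library, filled for titled GFP- and open for titled GFP+, and a bar for the mean ± SD of 4 libraries. The blue band spans the background guide, 4.29 to 4.97; the titled GFP- values of Olfr1507 (MOR28) lie in or near it, while its titled GFP+ values lie between 13.93 and 14.48.

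MOR28 (Olfr1507) is a receptor of the ventral epithelium and lies in the cluster whose transcription depends on the H element, the first odorant receptor enhancer described. In vehicle pools 1 to 4 its level in the libraries titled GFP+ was 14.39, 14.48, 13.93 and 14.45, and in those titled GFP- it was 5.12, 5.23, 4.41 and 6.28. In odor pools 1 to 4 it was 14.20, 14.01, 14.33 and 14.29 in the libraries titled GFP+ and 5.48, 4.55, 4.99 and 4.86 in those titled GFP-. The gates did not overlap in either treatment, and the lower gate sat at the edge of what the array could tell from background. In that gate 5 of 8 libraries were above their own background guide, which ranged from 4.69 to 4.97.

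The gate ratio of Olfr1507 (MOR28) was -9.05 ± 0.60 (SD, n = 4) in vehicle pools and -9.23 ± 0.35 in odor pools. Over all 8 pools it was -9.14 ± 0.15 (SE, limma adjusted p = 1.57e-10), and lower in 8 of 8 pools. Because 3 of the 8 lower values were not above the guide, the size is a lower bound. With those set to the guide MOR28 was at least 537-fold lower (9.07 on the log2 scale, 8.17 to 9.39 over the pools). Of all 1091 receptors 4 had a ratio below -8, among them Olfr1213 at -8.84 and Olfr99 at -8.44. Olfr1213 was also above its guide in 5 of 8 libraries titled GFP-, so the order of these ratios is not read. Olfr1213 and Olfr99 were the 2 receptors of most similar pattern, with a root mean square difference from MOR28 of 0.71 and 1.14 over the 8 pools, among the 998 receptors above the background guide in at least 1 group.

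The nearest neighbours of MOR28, Olfr1508 and Olfr1509, were not called lower. In the RefSeq order, Olfr1508 (MOR10) lies 22.47 kb away and Olfr1509 (MOR83) 38.53 kb away. Transcription of both is also known to depend on the H element. Olfr1509 had gate ratios of 3.23, 3.44, 3.65 and 3.65 in vehicle pools and 3.74, 3.47, 4.03 and 3.50 in odor pools, so it was higher in the libraries titled GFP- in all 8. Its mean ratio was 3.59 ± 0.10 (SE, limma adjusted p = 1.55e-09).

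Olfr1508 had ratios of 1.11, 0.39, -0.08 and -0.34 in vehicle pools and -0.35, 0.82, 0.01 and 0.16 in odor pools, with a mean of 0.21 that did not pass (limma adjusted p = 0.376). Its levels of 12.64 to 14.13 lay far above background in both gates. The ratio of MOR28 was below that of Olfr1509 by a mean of 12.73 and below that of Olfr1508 by 9.36, in 8 of 8 pools each (exact sign-flip test, adjusted p = 0.0148 over 17 comparisons of a member with a neighbour). These neighbour tests were added after the ratios had been seen, and they treat the 8 pools as independent. Olfr49, the next receptor on the other side, lies 1786.20 kb away and had a ratio of -0.85 (limma adjusted p = 0.0221), which was not called without the pool block (0.152) or without odor pool 1 (0.0587), vehicle pool 1 (0.0554) or vehicle pool 4 (0.0536).

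**Figure D2:**
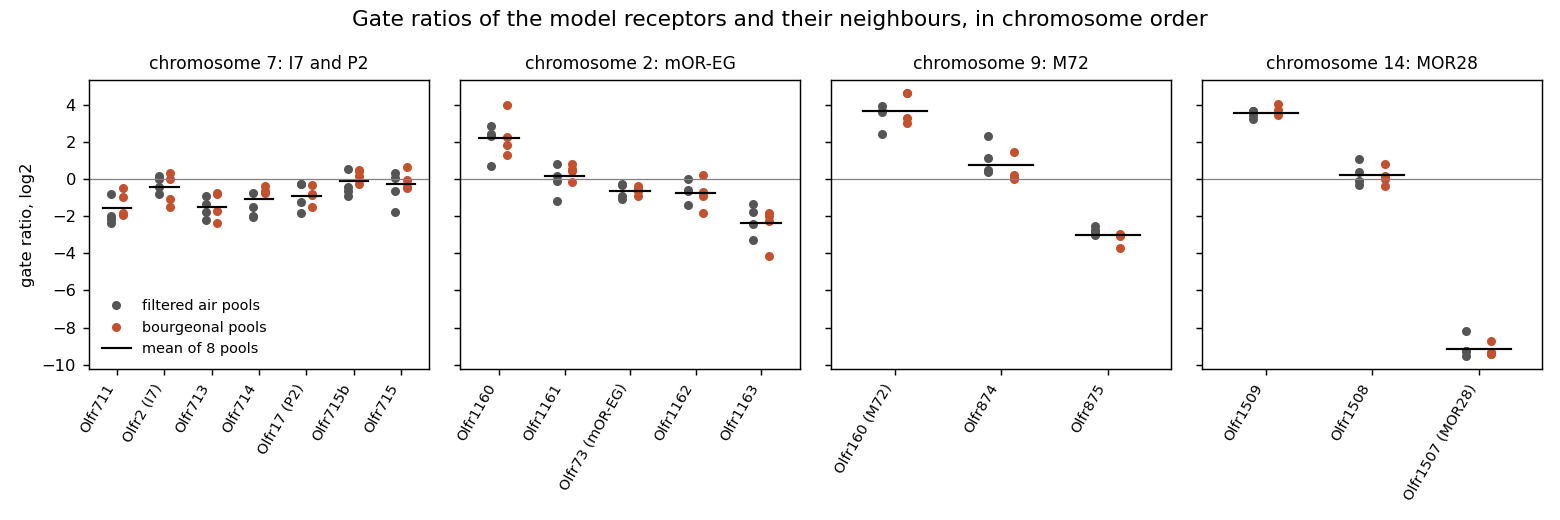
Gate ratios (y axis, log2) of the model receptors and the receptors next to them, in chromosome order within each cluster (x axis), with a point per pool and a line at the mean of 8 pools. On chromosome 14 the means run from 3.59 for Olfr1509 through 0.21 for Olfr1508 to -9.14 for Olfr1507 (MOR28).

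M72 (Olfr160) is a dorsal receptor activated by acetophenone and related aromatic ligands, and with its close relative M71 it has been the standard for axon guidance and receptor swap experiments. Its level in the libraries titled GFP- was 11.00, 11.26, 10.72 and 11.15 in vehicle pools 1 to 4 and 11.07, 10.95, 11.10 and 11.27 in odor pools 1 to 4. In the libraries titled GFP+ it was 8.56, 7.61, 7.03 and 7.19 in vehicle pools and 7.79, 7.92, 6.46 and 6.62 in odor pools. The gates did not overlap, the side with more S100a5 varied little, and all 16 values lay above the background guide.

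The gate ratio of Olfr160 (M72) was 3.44 ± 0.68 (SD, n = 4) in vehicle pools and 3.91 ± 0.87 in odor pools. Over all 8 pools it was 3.67 ± 0.22 (SE, limma adjusted p = 4.7e-07), a 12.7-fold difference that was positive in 8 of 8 pools. Of all 1091 receptors 97.7% had a lower ratio. The receptors of most similar pattern were Olfr281 (root mean square difference 0.53, ratio 3.90) and Olfr726 (0.55, ratio 3.55).

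Next to M72, at 17.70 kb, lies Olfr151 (M71), which has no value here. Olfr874, 33.02 kb away, had a smaller ratio of 0.76 ± 0.23 (SE, limma adjusted p = 0.0303), which was not called without odor pool 1 (0.0724), vehicle pool 3 (0.0574) or vehicle pool 4 (0.0627), nor without the pool block (0.0558). Olfr875, the next gene beyond, was lower in the libraries titled GFP- in all 8 pools, at -2.99 ± 0.11. The ratio of M72 exceeded that of Olfr874 by a mean of 2.91 in 8 of 8 pools (exact sign-flip test, adjusted p = 0.0148). On the other side the nearest receptor, Olfr18, lies 17375.25 kb away.

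P2 (Olfr17) was the receptor of the first experiments to show, with a tagged allele, that axons of like neurons converge on fixed glomeruli. In vehicle pools 1 to 4 its level was 12.59, 13.82, 13.99 and 13.46 in the libraries titled GFP- and 14.44, 14.07, 14.24 and 14.70 in those titled GFP+. In odor pools 1 to 4 it was 13.05, 13.95, 14.02 and 13.59 in the libraries titled GFP- and 14.55, 14.75, 14.33 and 14.46 in those titled GFP+. Every titled GFP- value lay below every titled GFP+ value of its treatment, by little in pools 2 and 3 of vehicle.

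The gate ratio of Olfr17 (P2) was -0.90 ± 0.79 (SD, n = 4) in vehicle pools and -0.87 ± 0.48 in odor pools. Over all 8 pools it was -0.88 ± 0.19 (SE, limma adjusted p = 0.00619), lower in 8 of 8 pools and 1.85-fold in size. In vehicle pools alone P2 passed narrowly (limma adjusted p = 0.0485) and in odor pools alone it did not (0.0508). The vehicle call was lost without odor pool 2 (0.0682), 3 (0.0507) or 4 (0.0661) and without vehicle pool 1 (ratio -0.58, 0.186) or 4 (0.164). The odor ratio passed without vehicle pool 1 (0.0228), 2 (0.0476) or 3 (0.0466), so the result rests on the 8 pools together.

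mOR-EG (Olfr73) is a receptor for eugenol and vanillin and a model for ligand binding. In vehicle pools 1 to 4 its level was 11.02, 12.24, 11.84 and 11.65 in the libraries titled GFP- and 12.12, 12.54, 12.10 and 12.54 in those titled GFP+. In odor pools 1 to 4 it was 11.25, 12.17, 11.97 and 11.46 in the libraries titled GFP- and 12.13, 12.62, 12.34 and 12.10 in those titled GFP+. The ranges of the gates overlapped in both treatments, yet the library titled GFP- was the lower of its pool in 8 of 8 pools.

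The gate ratio of Olfr73 (mOR-EG) was -0.64 ± 0.42 (SD, n = 4) in vehicle pools (limma adjusted p = 0.0248) and -0.59 ± 0.23 in odor pools (0.0327). Over all 8 pools it was -0.61 ± 0.12 (SE, adjusted p = 0.00288), or 1.53-fold. The vehicle call was lost without vehicle pool 1 (limma adjusted p = 0.11) or 4 (0.107), and the odor call without odor pool 1 (0.131), 2 (0.0721), 3 (0.0586) or 4 (0.0957). After centring libraries on their medians the ratio over 8 pools was -0.26 (0.0678). Its size thus depends on the scaling, while its sign was negative in every alternative run for the 8-pool ratio.

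I7 (Olfr2) is the octanal receptor of early ligand work. In vehicle pools 1 to 4 its level was 7.17, 6.84, 6.78 and 8.08 in the libraries titled GFP- and 7.17, 7.61, 7.19 and 7.91 in those titled GFP+. In odor pools 1 to 4 it was 6.59, 6.75, 7.12 and 6.09 in the libraries titled GFP- and 6.24, 7.83, 7.14 and 7.59 in those titled GFP+. The gates overlapped throughout, and all 16 values lay above the background guide.

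The gate ratio of Olfr2 (I7) was -0.25 ± 0.42 (SD, n = 4) in vehicle pools and -0.56 ± 0.87 in odor pools, with single pools from -1.50 to 0.35. Over all 8 pools it was -0.41 ± 0.20 (SE, 95% interval -0.85 to 0.04) and did not pass (limma adjusted p = 0.156). The interval allows a difference about as large as that of P2, so the data do not show that I7 was evenly split. The receptors of most similar pattern were Olfr582 (root mean square difference 0.43) and Olfr1026 (0.49).

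**Figure D3:**
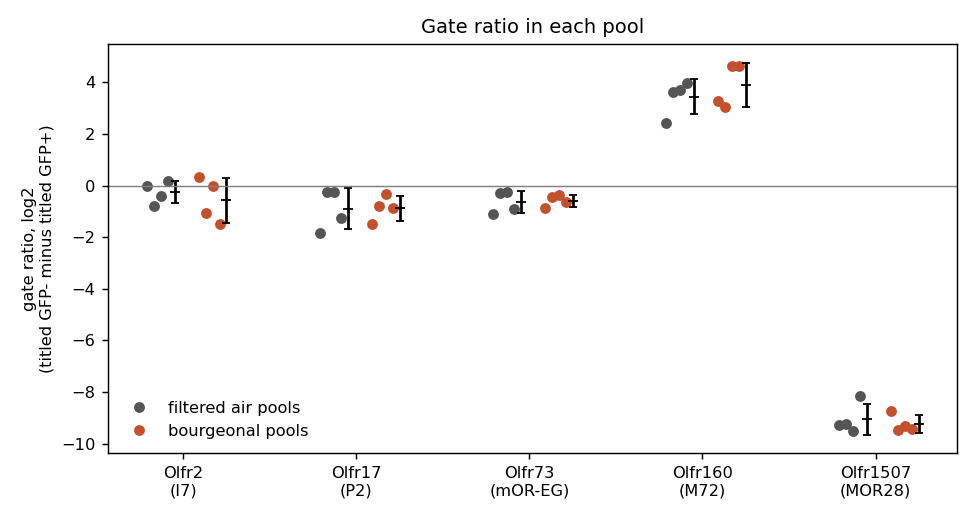
Gate ratio (y axis, log2, titled GFP- minus titled GFP+) of each model receptor (x axis) in the 4 filtered air and 4 bourgeonal pools, with a point per pool and a bar for the mean ± SD. Olfr160 (M72) lies at 2.44 or above in every pool, Olfr1507 (MOR28) at -8.17 or below in every pool, and air and bourgeonal pools overlap for every receptor.

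Set against each other, 7 of the 10 pairs of members differed in gate ratio (exact two-sided sign-flip test over 8 pools, adjusted p = 0.0112 for each). These were all the pairs that include M72 or MOR28. Each had the lowest unadjusted p that the test can give (0.00781), so the equal values do not rank the pairs. The test treats the pools as independent, although deviations correlated between pools that share a number. M72 exceeded MOR28 by 12.82 ± 0.89 (SD, n = 8 pools). The 3 pairs among I7, P2 and mOR-EG did not pass: P2 minus mOR-EG was -0.27 ± 0.31 (adjusted p = 0.0781), I7 minus P2 was 0.48 ± 1.06 (0.269) and I7 minus mOR-EG was 0.21 ± 0.85 (0.516).

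P2 and mOR-EG also varied together from pool to pool. Across the 8 pools their gate ratios had a Pearson r of 0.977 and a Spearman rho of 0.976, and without the 2 pools farthest from the median of P2, r was 0.951 over 6 pools. In each treatment pool 1 had the lowest ratio of both receptors and pool 3 the highest, so pools that share a number deviated together and are not 8 independent points. These values are therefore a description, with no p, and with 4 pools a treatment gives no value of its own. The genes are on different chromosomes. The median gate ratio of all 1091 receptors also moved by pool. In vehicle pools 1 to 4 it was -0.01, 0.36, 0.40 and 0.20. In odor pools 1 to 4 it was 0.24, 0.31, 0.42 and 0.42. This median was lowest in pool 1 of each treatment, and highest in vehicle pool 3 and odor pool 4. Its part in the relation of P2 and mOR-EG was not tested. Of the 997 other receptors above background, 1 had a higher r with P2 than mOR-EG had, the median r was 0.22, and 1.40% had an r above 0.9, so this relation is near the top of a range that holds others. In the ranking by root mean square difference mOR-EG was the second most similar receptor to P2 (0.39), after Olfr775 (0.36). The nearest to mOR-EG were Olfr455 (0.21) and Olfr984 (0.23). Over the other 9 pairs of members r ran from -0.562 to 0.615.

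**Figure D4:**
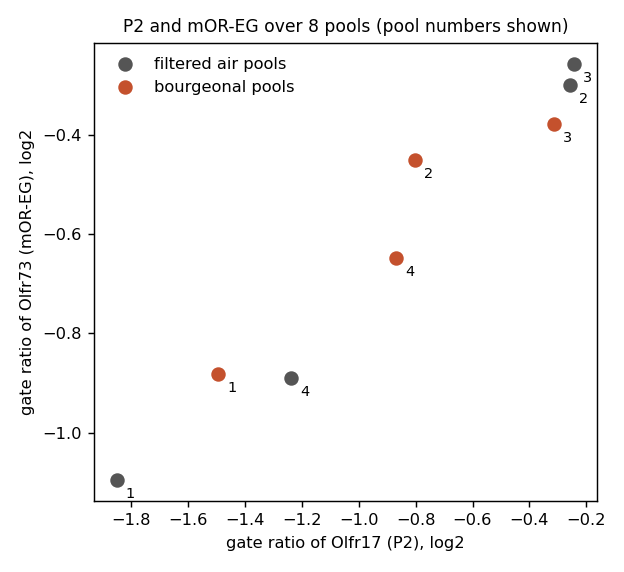
Gate ratios (log2) of Olfr17 (P2, x axis) and Olfr73 (mOR-EG, y axis) in the 8 pools, with the pool number beside each point. Pools 1 lie at the lower left and pools 3 at the upper right in both treatments.

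P2 and I7 lie in the same stretch of chromosome 7, and each measured receptor next to them was called lower or did not pass. Between them are Olfr713 (P3), with a ratio of -1.49 ± 0.20 (SE, limma adjusted p = 0.000222), and Olfr714 (P4), with -1.09 ± 0.14 (0.000176). Olfr711, on the far side of I7, had a ratio of -1.55 (0.000198). Beyond P2, Olfr715b (-0.09) and Olfr715 (-0.28) did not pass, and with each library centred on its median both were above 0 (0.26 and 0.07). P2 was higher in ratio than Olfr713 by 0.60 (exact sign-flip test, adjusted p = 0.0266) and lower than Olfr715 by 0.60 (0.0148). Its difference from Olfr715b was -0.79 (0.0443), while that from Olfr714 of 0.21 did not pass (0.548). I7 was higher in ratio than Olfr713 by 1.08 (exact sign-flip test, adjusted p = 0.0443). The differences of I7 from Olfr711 of 1.15 (0.0511) and from Olfr714 of 0.69 (0.0797) did not pass.

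The neighbours of mOR-EG on chromosome 2 went both ways. Olfr1160 had a ratio of 2.22 ± 0.30 (SE, limma adjusted p = 0.000239), Olfr1161 of 0.17 (0.546), Olfr1162 of -0.73 (0.0267) and Olfr1163 of -2.39 (7.37e-05). Olfr1163 was above its background guide in 0 of 8 libraries titled GFP-, so the size of its ratio is not exact. The call of Olfr1162 was lost without any of 6 pools in turn, odor 2, 3 or 4 or vehicle 2, 3 or 4, with adjusted p up to 0.0694. mOR-EG had a lower ratio than Olfr1160 in 8 of 8 pools, with a mean difference of -2.83 (exact sign-flip test, adjusted p = 0.0148). Over the 16 measured neighbours of all 6 receptors, 3 were called higher and 8 lower, against 43.8% and 31.3% of all receptors. Neighbours were taken by gene order, so some lie far outside the clusters. Olfr18 and Olfr873 are 17375.25 and 17410.18 kb from M72, and Olfr49 is 1786.20 kb from MOR28.

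No change with bourgeonal was detectable in the levels or gate ratios of the 5 receptors. For the change of the gate ratio, odor minus vehicle, 0 of the 5 passed, against 0.00% of all genes called (limma; 1109 genes and 0 of the 5 had an unadjusted p under 0.05). M72 differed by 0.47 (95% interval -0.53 to 1.46), MOR28 by -0.18 (-0.86 to 0.50), P2 by 0.03 (-0.83 to 0.88), mOR-EG by 0.05 (-0.48 to 0.57) and I7 by -0.31 (-1.20 to 0.58). For each, odor and vehicle pools overlapped, with exact permutation p between 0.371 and 1. The intervals leave room for a rise in ratio of up to 0.50 (MOR28) to 1.46 (M72) and for a change downwards of up to -0.48 (mOR-EG) to -1.20 (I7).

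Within each gate the treatments also overlapped. In libraries titled GFP+ the odor minus vehicle change was -0.40 for M72, -0.27 for I7, 0.16 for P2, -0.11 for MOR28 and -0.02 for mOR-EG, and 0 of the 5 passed against 0.0103% of all genes and 0.183% of receptors, all of them lower (limma; 827 genes had an unadjusted p under 0.05). In libraries titled GFP- it was -0.58 for I7, -0.29 for MOR28, 0.19 for P2, 0.07 for M72 and 0.02 for mOR-EG, and 0 of the 5 passed against 0.00% of all genes (limma; 869 genes had an unadjusted p under 0.05, and the members' smallest was 0.0803, for Olfr2). With 4 pools of odor and 4 of vehicle, the order of a receptor's 4 group means was therefore set by the gate where it had a side. It ran titled GFP- above titled GFP+ for M72 and the reverse for MOR28, P2 and mOR-EG, with the treatments within a gate not separated.

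In vehicle pools alone 1 of the 5 was called higher and 3 lower. The background there was 35.6% of receptors called higher and 27.3% lower (62.9% in all), and 6.23% of all genes higher and 9.95% lower (16.2% in all). In odor pools alone 1 was called higher and 2 lower, against 39.1% of receptors higher and 26.6% lower (65.7% in all), and 7.82% of all genes higher and 10.2% lower (18.1% in all). MOR28 (Olfr1507) and M72 (Olfr160) passed in both treatments, with limma adjusted p of 6.32e-09 and 2.32e-05 in vehicle pools and 4.12e-09 and 8.14e-06 in odor pools.

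**Figure D5:**
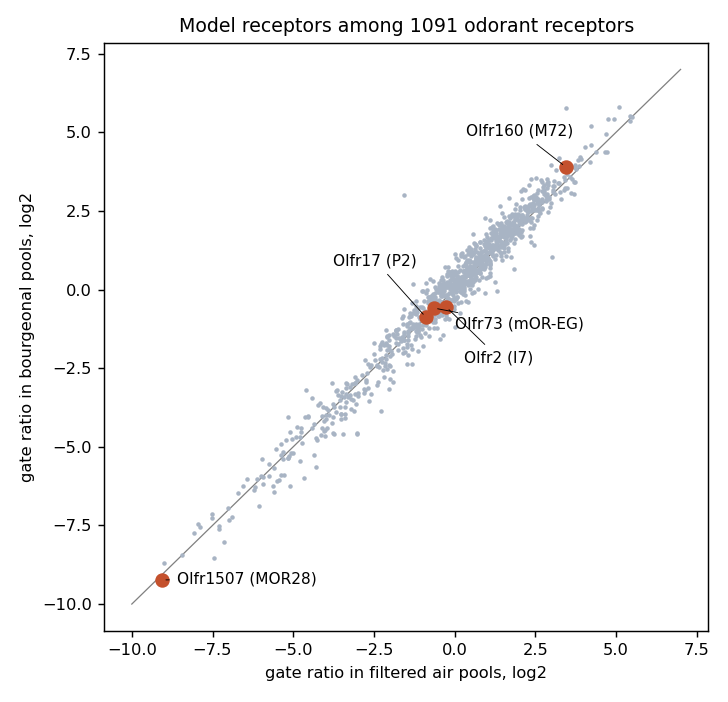
Gate ratio in filtered air pools (x axis, log2) against bourgeonal pools (y axis, log2) for all 1091 odorant receptors (grey points), with the 5 model receptors in orange and a line where both ratios are equal. Olfr1507 (MOR28) lies near the lower end and Olfr160 (M72) near the upper end. Over 8 pools the other 3 lie between the lower quartile of all receptors at -0.94 and their median at 0.27.

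Other receptors with a history in tagging or ligand work had gate ratios from -2.85 to 3.59. Of 14 listed, 12 were measured, and 4 were called higher and 6 lower over all 8 pools, against 43.8% and 31.3% of all receptors. Their median was -0.52. The list shares Olfr713, Olfr714, Olfr1508 and Olfr1509 with the neighbours above, and Olfr1509 set the top of the range. Olfr15 had a ratio of 2.92 and Olfr124 (SR1), a broadly tuned receptor, of 1.17. Olfr155, a MOR37 receptor, had a ratio of -2.85, and Olfr545 (S50), a class I receptor for dicarboxylic acids, of -1.03. Olfr544, another receptor for dicarboxylic acids, was higher at 0.40 (limma adjusted p = 0.0175), but not without the pool block (0.398). Olfr74 (mOR-EV), a close relative of mOR-EG, was above its background guide in 2 of 16 libraries, so its gate ratio is not read. Olfr6 (-0.46) and Olfr156 (-0.93) passed narrowly, at 0.0404 and 0.0322, and were not stable to leaving out a pool. Olfr6 lost its call without odor pool 1 (0.0937) or odor pool 3 (0.101), and without vehicle pool 1 (0.0946), 3 (0.0911) or 4 (0.0775). Olfr156 lost its call without odor pool 1 (0.0683) or odor pool 3 (0.0608), and without vehicle pool 1 (0.0803) or 4 (0.0833).

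The 12 genes of transduction and receptor trafficking, machinery that receptors share, had a median gate ratio of 0.16 beside 0.10 for all genes. Gnb1 (18.75 to 18.95) and Gnal (18.51 to 18.77) lay near the arrays' highest values of 19.38 to 19.59. Cngb1 (4.24 to 5.07) lay near background, so small ratios of these 3 genes are not read as evenness. Against 14.4% of all genes called higher and 13.2% lower, 4 of the 12 were higher over all 8 pools and 0 lower. These were the chloride channel Ano2 (0.46), the adenylyl cyclase Adcy3 (0.30), the exchange factor Ric8b (0.30) and the trafficking protein Reep1 (0.29). Reep1 passed narrowly (limma adjusted p = 0.0462) and did not pass without odor pool 2, 3 or 4 or any vehicle pool (0.0619 to 0.113). Adcy3 (limma adjusted p = 0.0197) lost its call without odor pool 1 (0.0526) or odor pool 3 (0.0519), and without vehicle pool 2 (0.0542). With libraries centred on their receptor median Adcy3, Reep1 and Ric8b did not pass (0.294, 0.398 and 0.257). Of 8 genes of receptor choice and transcription 1 was higher, again Adcy3. Lhx2 (-0.11) and Ldb1 (-0.08), which act at receptor enhancers, did not pass, and with each library centred on its median they were higher (0.24 and 0.27).

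Markers of other cells moved with the gates on which these ratios rest. Omp, the marker of mature sensory neurons, had a ratio of 0.04 (limma adjusted p = 0.717; -0.09 with libraries centred on their receptor median), with values of 18.63 to 18.97 near the arrays' highest of 19.38 to 19.59. Over the 8 listed mature neuron markers, 2 were called higher and 0 lower, and their summed level on the log2 scale lay between 21.03 and 21.22 in all libraries. That sum is led by Stoml3 (19.38 to 19.59), Omp and Gnal (18.51 to 18.77), all near the top of the arrays' range. All 6 measured immune markers were lower in the libraries titled GFP-, with summed levels of 6.90 to 8.42 there against 17.51 to 18.69 in those titled GFP+. Immature neuron markers (4 of 5 lower, 15.38 to 15.64 against 15.80 to 16.11) and sustentacular markers (4 of 5 lower, 12.29 to 14.80 against 15.05 to 16.09) went the same way. So did microvillar markers (4 of 4 lower, 6.71 to 7.46 against 10.83 to 12.37) and progenitor markers (2 of 2 measured lower, 4.60 to 5.002 against 8.97 to 10.32). The mean of Neurog1 lay below the highest background guide in each group, so the higher progenitor sum rests on Mki67. The immature neuron sum is led by Stmn2 (ratio -0.58) and Tubb3 (0.002). Gap43 (-2.62), Dpysl3 (-4.15) and Gng8 (-4.73), at lower levels, differed between the gates by more than that sum shows. Of 4 markers of guanylyl cyclase D neurons 1 was lower (12.66 to 12.90 against 12.67 to 13.41). Gucy2d and Cnga3 lay below the background guide in all libraries, and the sum is led by Car2 (12.54 to 13.35). It is therefore not read as a level of these neurons. The part of the listed cell types in the receptors' ratios was not tested. MOR28, P2 and mOR-EG had ratios of the same sign as the markers called lower, and M72 of the opposite sign.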

How the data were processed

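Biotinylated cRNA from 50 to 100 ng of RNA per library was hybridised to Clariom S arrays, per the labels' protocols. The authors deposited log2 expression values. Per the submitters' processing notes they used Affymetrix Expression Console; how probes were summarised, and which genome build was used, is not given in the sources used here. Of 28846 probe sets, 19572 named 1 gene, 0 several and 2634 none, beside 6546 background or positive controls by their ID and 94 spike-ins. For each of 19505 genes the probe set with the highest mean was kept. Names, chromosomes and gene order came from RefSeq (GRCm38.p6) by Entrez ID, which matched 100% of the genes named in the text.

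Gate ratios were fitted with limma 3.58.1 in R 4.3.3 on 16 libraries with the pool as a block, and odor against vehicle within a gate on 8 libraries without a block, two-sided and adjusted by Benjamini-Hochberg across all 19505 genes at 0.05. The fits were tested on simulated data. The simulation held no correlation between pools that share a replicate number, so it does not bear on that dependence. Deviations from the group means correlated between odor and vehicle samples that share a replicate number. The correlations were 0.157 to 0.210 in libraries titled GFP+ and 0.0879 to 0.161 in those titled GFP-. Between the gates of a pool, the unit used as a block, they were 0.0979 to 0.287. The replicate number was used as a block only in alternative runs. The labels do not say what the number stands for, and the exact tests treat the 8 pools as independent.

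Genes named in the text were the members, the 2 nearest receptors on each side, the 2 receptors of most similar gate ratios, and lists of other studied receptors, transduction, trafficking, receptor choice, reporter and cell marker genes. The nearest relative by protein was not analysed here. The members and lists were chosen with earlier results of these data known. Alternatives were other scalings, a filter on dim genes, the mean over probe sets, another variance model, other blocks, and leaving out each pool.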

Additional observations from a re-analysis of the deposited data

Results flagged for a closer look

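Of 30 sets of 4 values tested (levels in 4 groups and gate ratios in each treatment for 5 receptors), 2 held a value far from the other 3 by Dixon's criterion, and chance alone is expected to mark about 1 in 20. Both concern Olfr1507 (MOR28). Its level in the library titled GFP+ of vehicle pool 3 was 13.93, below the other 3. Its gate ratio in odor pool 1 was -8.72, above the other 3. Without odor pool 1 the ratio of MOR28 in odor pools was -9.41, and without vehicle pool 3 the ratio in vehicle pools was -8.90.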

How the results depend on the processing

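MOR28 and M72 kept their calls in vehicle pools, odor pools and all 8 pools under every alternative run, as did P2 over all 8 pools. Centring each library on its median raised the median gate ratio of all genes over 8 pools by 0.353. It gave 12023, 12174 and 16128 genes past the threshold for vehicle, odor and all 8 pools (3156, 3521 and 5378 as deposited), took I7 in vehicle pools to 0.10 and P2 there to -0.54, and mOR-EG to -0.28, -0.24 and -0.26 in vehicle, odor and all 8 pools, none of which passed. It also turned Olfr715b (0.26), Olfr715 (0.072), Lhx2 (0.24) and Ldb1 (0.27). P2 in odor pools passed after quantile normalization (-0.91), with receptor-median centring (-1.07), without dim genes (-0.87) and without the pool block (-0.87). Under trend and robust variance P2 in vehicle pools (-0.90) did not pass. Without the pool block mOR-EG did not pass in vehicle (-0.64) or odor pools (-0.59). Values near 0 that turned were, with receptor-median centring, the change of ratio of P2 (-0.12) and mOR-EG (-0.10), odor against vehicle in titled GFP+ libraries for mOR-EG (0.12) and MOR28 (0.034), and Omp (-0.086). After quantile normalization Olfr715b (0.038) and mOR-EG in titled GFP- libraries (-0.0042) turned. Odor against vehicle in titled GFP+ libraries called 1 gene after quantile normalization, with receptor-median centring or with the replicate block, 0 without dim genes and 0 to 2 without a pool. In titled GFP- libraries trend and robust variance called 1. The replicate block changed no call of a member.

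Leaving out a pool gave ratios of -1.12 to -0.58 for P2 in vehicle and -1.06 to -0.66 in odor pools, and of -0.76 to -0.48 and -0.66 to -0.49 for mOR-EG. The change of ratio ran from -0.61 to 0.0055 for I7, -0.29 to 0.25 for P2, -0.11 to 0.17 for mOR-EG and -0.35 to 0.12 for MOR28. Odor against vehicle ran in titled GFP+ libraries from -0.48 to 0.051 for I7 and -0.13 to 0.049 for mOR-EG, and in titled GFP- libraries from -0.10 to 0.39 for P2, -0.20 to 0.21 for mOR-EG, -0.038 to 0.14 for M72 and -0.57 to 0.053 for MOR28. The causes were not tested. The MOR28 signal near background limits the precision of its ratio.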
